A study of Mus musculus with 88 samples.

Results

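Atf3, Jun, Sprr1a, Gap43, Sox11, Gadd45a, Gal, Ecel1, Klf6 and Stmn4 are genes known from neurons whose axons have been cut or are regrowing. They were followed in bruised and opposite cerebral cortex of mice after controlled cortical impact. The 10 genes were chosen by symbol, and each symbol matched 1 gene identifier among the 54532 genes of the count table. The rule used the symbols alone and no measured value.

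The injured mice were C57BL/6J females and males of 8 to 9 weeks. Under isoflurane their right somatosensory cortex was exposed by a craniotomy of 3 mm and struck by a 2 mm tip, 1 mm deep, at 6.0 m/s for 100 ms. They were given buprenorphine at 0.05 mg/kg, and after perfusion 4 mm punches of cortex were taken at 24 h or 72 h. The injured (ipsilateral) side gave 15 libraries at 24 h (7 females, 8 males) and 15 at 72 h (9 females, 6 males). The opposite (contralateral) side gave 15 at 24 h and 16 at 72 h. Naive mice of the same strain, bought at the same age as the injured ones and with no age of their own stated at collection, gave 13 libraries per side (7 females, 6 males), with the right punch labelled ipsilateral. No group had the craniotomy, anaesthetic and analgesic without impact, so their effect and that of the impact cannot be told apart in the comparisons with naive mice. The craniotomy was on the injured side only, so its effect and that of the impact cannot be told apart between the sides either. The punch is whole tissue: fewer cells of a type and less RNA per cell cannot be told apart.

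Libraries held 10.6 to 26.36 M counts (median 16.25 M), and a level below is in CPM, the count per M counts of the library. All 10 neuron markers were detected in naive cortex, with a summed level of 7630 to 8930 CPM ipsilaterally. For animal PM1 the labels of the ipsilateral library disagree about sex, and that library entered no comparison. The ipsilateral library labelled female PF1, counted here among the 9 females at 72 h, held 0.11 CPM of Xist and 147.96 CPM of Y-linked genes, which goes against its label. The contralateral library labelled PF1 held 485.42 CPM of Xist and 0 CPM of Y-linked genes, and the unassigned ipsilateral library of PM1 held 489.39 and 0 CPM. The pair of libraries labelled PF1 thus may not come from 1 mouse, and whether the ipsilateral libraries of PF1 and PM1 were exchanged was not tested. Animal LF3, a 72 h female, had the largest mitochondrial share, 10.48% ipsilaterally against 2.35% in the lowest library. The contralateral library of naive male CM1 also stood apart for several of the genes. Values without these animals are given where they differ. The labels name 3 batches. Naive and 24 h mice make up batch A, mice of every time are in batch B, and batch C has only 72 h mice.

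In a neuron with a damaged axon, signals that travel back along the axon activate stress kinases of the DLK and JNK pathway, which act on Jun and on other transcription factors. These factors turn on genes that alter the cytoskeleton, the membrane and the peptides of the cell. The programme is best known from peripheral sensory and motor neurons of rodents, which regrow their axons, while most neurons of the adult cortex do not. Several of these genes are also made by other stressed cells, so that their level in a tissue punch has no single cellular source.

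At 24 h 8 of the genes were higher on the injured side than in naive punches. The 250 bases before their RefSeq start sites were read for sites of the AP-1 family, to which the Jun and Atf3 proteins belong. RefSeq promoters (GRCm38.p6) were found for 8 of the 10 genes, and Gap43 and Stmn4 were not matched. The 8 letters TGACATCA were present on either strand in 4 of the 8, against 2.93% of 32851 promoters of the same length. They are known from the Jun promoter itself, so the match of Jun among these 4 was given in advance. The AP-1 site TGANTCA was present in 1 of the 8 and in 6.75% of all promoters. The full cyclic AMP response element TGACGTCA was in none of the 8 and in 1.55% of all, and its first letters TGACGT, which the full element contains, were in 1 of the 8 and in 6.47%. These are matches of letters, not measured binding. The 5 promoters with a match are printed 5′ to 3′ on the strand of the gene, with the matched letters in capitals.
Atf3: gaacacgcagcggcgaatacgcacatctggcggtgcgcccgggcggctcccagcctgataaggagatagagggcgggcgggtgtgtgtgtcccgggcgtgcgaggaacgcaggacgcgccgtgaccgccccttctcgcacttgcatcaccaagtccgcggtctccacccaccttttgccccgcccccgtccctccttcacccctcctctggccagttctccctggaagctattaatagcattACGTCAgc
Jun: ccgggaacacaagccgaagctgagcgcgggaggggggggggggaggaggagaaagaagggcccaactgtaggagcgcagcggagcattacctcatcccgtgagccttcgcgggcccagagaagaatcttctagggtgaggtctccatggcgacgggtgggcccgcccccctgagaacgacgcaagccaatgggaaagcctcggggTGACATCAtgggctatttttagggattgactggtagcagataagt
Sox11: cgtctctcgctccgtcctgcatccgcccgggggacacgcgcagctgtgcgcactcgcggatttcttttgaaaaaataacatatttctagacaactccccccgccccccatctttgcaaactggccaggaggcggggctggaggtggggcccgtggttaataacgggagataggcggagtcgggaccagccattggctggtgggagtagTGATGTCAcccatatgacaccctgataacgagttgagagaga
Klf6: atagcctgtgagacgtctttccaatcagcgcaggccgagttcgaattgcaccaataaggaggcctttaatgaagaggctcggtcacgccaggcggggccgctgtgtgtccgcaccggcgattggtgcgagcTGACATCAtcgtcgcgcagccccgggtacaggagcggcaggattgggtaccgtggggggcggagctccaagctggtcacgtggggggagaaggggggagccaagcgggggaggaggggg
Sprr1a: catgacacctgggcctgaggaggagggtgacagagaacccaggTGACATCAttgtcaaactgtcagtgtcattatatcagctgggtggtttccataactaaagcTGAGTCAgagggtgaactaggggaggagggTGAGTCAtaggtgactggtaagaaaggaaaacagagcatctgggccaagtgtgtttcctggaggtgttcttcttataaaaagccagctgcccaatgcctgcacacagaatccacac
They lie at chr1:191183334-191183583 on the minus strand for Atf3, chr4:95052223-95052472 on the minus strand for Jun, chr12:27342719-27342968 on the minus strand for Sox11, chr13:5861239-5861488 on the plus strand for Klf6 and chr3:92485882-92486131 on the minus strand for Sprr1a. The TGACATCA match began 45 bases before the start site in Jun, 119 in Klf6 and 207 in Sprr1a. In Sox11 it stood on the other strand, as TGATGTCA, 42 bases before the start. Sprr1a also held TGAGTCA 146 and 116 bases upstream, and Atf3 held ACGTCA 8 bases upstream. The promoters of Gadd45a, Gal and Ecel1 held none of these letters.

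At 24 h, 8 of the 10 genes were higher on the injured side than in the matching naive punch: Atf3, Jun, Sox11, Klf6, Gadd45a, Sprr1a, Gal and Ecel1. None was lower, and Gap43 and Stmn4 did not pass the test. Among all 19126 genes tested, 22.9% were called higher and 20.1% lower. The median log2 fold change of the 10 genes was 1.61, against 0.01 for all genes. At 72 h, 7 were higher (27.8% of all genes) and 1, Stmn4, was lower (20.7% of all genes), with a median of 1.11 against 0.06 for all genes. Calls were made at an adjusted p under 0.05 from edgeR's quasi-likelihood test over females and males together, with Benjamini-Hochberg adjustment over all genes, and every adjusted p below is of this kind. Markers of infiltrating myeloid cells moved with these changes: their summed level was 5.91 to 34.1 CPM in naive punches, 49.5 to 611 CPM at 24 h and 166 to 1170 CPM at 72 h. Their part in the changes was not tested. The levels given for each gene below are those of ipsilateral punches until the opposite side is named. They are CPM over all batches, whereas the fits scale library sizes by TMM, a normalization between libraries. Batch C holds only 72 h mice, so the fitted 72 h changes against naive and against 24 h lean on batch B. Batch B has 5 of the 15 ipsilateral punches at 72 h. Fitted changes and levels can therefore differ at that time.

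**Figure D1:**
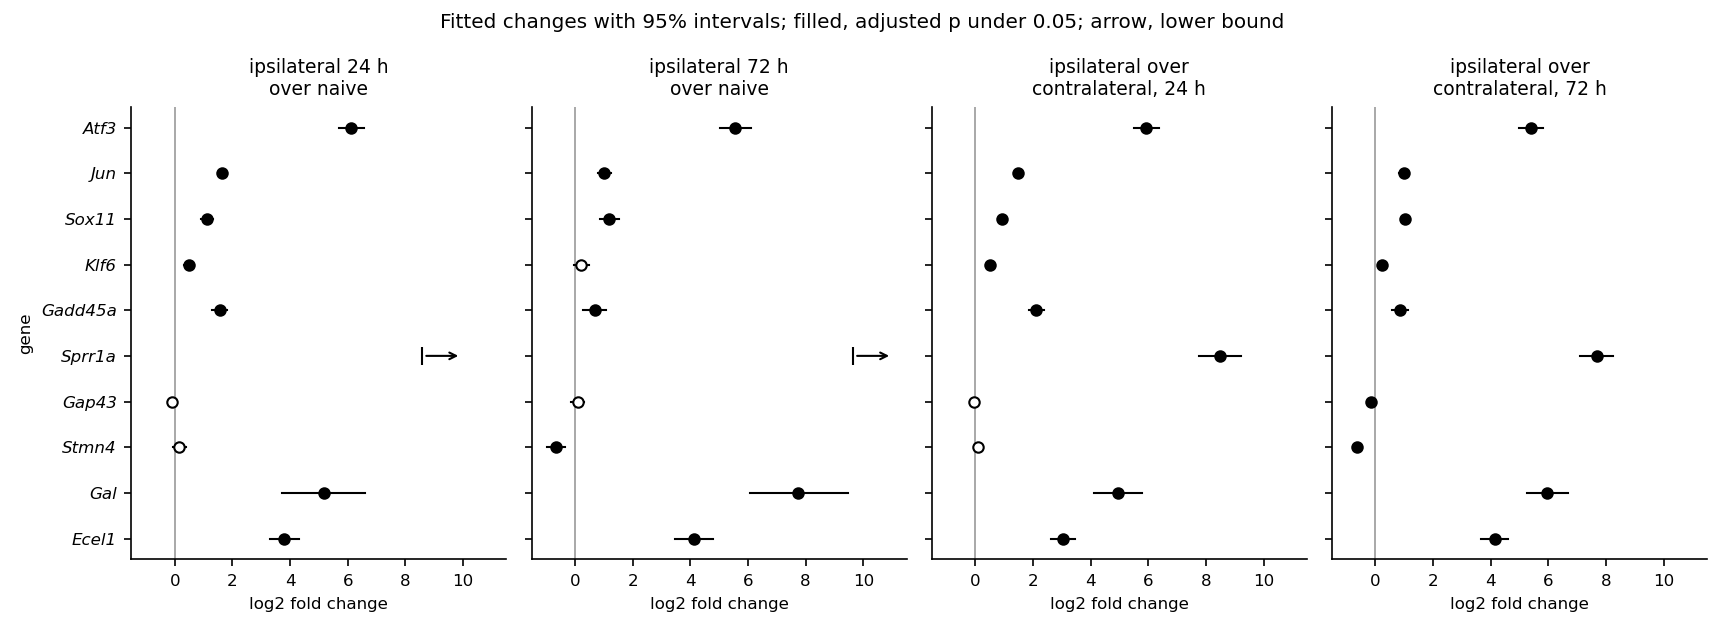
Fitted log2 fold changes of the 10 genes on the horizontal axis, with 95% intervals, in 4 panels: injured side against naive at 24 h and at 72 h, and injured against opposite side of the same animals at 24 h and at 72 h. Filled points have an adjusted p under 0.05, and the arrow for Sprr1a against naive marks a lower bound. Sprr1a, Atf3, Gal and Ecel1 stand farthest to the right in all 4 panels, Gap43 sits near 0, and Stmn4 lies left of 0 at 72 h.

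All 4 transcription factors were higher at 24 h, and Atf3 rose the most. Atf3, a stress-induced factor of the bZIP family that is a standard marker of axotomised sensory neurons, lies at chr1:191170296-191218039 on the minus strand. Its lowest, median and highest levels were 0.05, 0.42 and 0.76 CPM in naive punches, 17.21, 28.54 and 48.25 CPM at 24 h, and 14.95, 29.09 and 41.02 CPM at 72 h. No injured punch overlapped a naive one at either time. The log2 fold change against naive was 6.12 ± 0.22 (SE) at 24 h, a 69.8-fold rise (95% interval 51.9 to 93.9, adjusted p = 1.18e-24). At 72 h it was 5.55 ± 0.27 (adjusted p = 1.03e-19).

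Jun, the AP-1 subunit that JNK phosphorylates, lies at chr4:95049034-95052222 on the minus strand. It was already well expressed in naive punches, with a lowest, median and highest level of 28.2, 44.76 and 70.85 CPM, and had 128.14, 154.0 and 202.88 CPM at 24 h and 66.1, 122.1 and 160.56 CPM at 72 h. All 24 h punches and 14 of 15 at 72 h lay above the highest naive punch; the remaining one was that of LF3, at 66.1 CPM. The log2 fold change was 1.65 ± 0.08 at 24 h (adjusted p = 8.64e-20) and 1.02 ± 0.12 at 72 h (adjusted p = 2.69e-09). An antisense gene, Junos, overlaps Jun and averaged 1.53 CPM; whether the counting used strand is not given in the sources used here, so reads of the pair cannot be told apart.

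Sox11, a factor of developing neurons that promotes sensory axon regrowth in mice, lies at chr12:27334264-27342574 on the minus strand. Its levels were 10.71, 13.13 and 22.73 CPM in naive punches, 24.48, 29.3 and 43.8 CPM at 24 h, and 20.58, 29.27 and 41.09 CPM at 72 h, each given as lowest, median and highest. The 24 h punches were all above the naive ones, and 14 of 15 were at 72 h. The rise was 1.11 ± 0.11 on the log2 scale at 24 h (adjusted p = 5.88e-11) and 1.19 ± 0.16 at 72 h (adjusted p = 1.03e-07). The 72 h level differed from the 24 h level by 0.08 ± 0.15, which did not pass (adjusted p = 0.697).

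Klf6, a zinc finger factor of the Krüppel-like family linked to axon growth in zebrafish and mice, lies at chr13:5861482-5870394 on the plus strand and had the smallest rise of the 4 factors. Its levels were 43.18, 54.46 and 66.73 CPM in naive punches, 61.91, 79.97 and 118.92 CPM at 24 h, and 59.43, 75.4 and 92.34 CPM at 72 h. At 24 h, 14 of 15 punches lay above the highest naive punch, against 11 of 15 at 72 h. The log2 fold change of 0.48 ± 0.09 at 24 h passed the test (adjusted p = 1.82e-05), with 0.30 within batch A and 0.71 within batch B. That of 0.22 ± 0.13 at 72 h did not (adjusted p = 0.171). Without animal LF3 the 72 h value was 0.03 ± 0.12, and without a batch term it was 0.33 ± 0.09 and passed (adjusted p = 0.00133).

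Gadd45a, a stress-induced protein of growth arrest and DNA repair, lies at chr6:67035096-67037457 on the minus strand and had its highest levels at 24 h. It stood at 1.74, 4.06 and 8.68 CPM in naive punches, at 9.98, 13.98 and 18.73 CPM at 24 h and at 5.61, 8.79 and 12.21 CPM at 72 h. The 24 h punches did not overlap the naive ones, whereas 9 of 15 lay above them at 72 h. The log2 fold change was 1.56 ± 0.14 at 24 h (adjusted p = 1.36e-12) and 0.68 ± 0.20 at 72 h (adjusted p = 0.00487). The transcript E230016M11Rik lies on the opposite strand of the same locus and averaged 4.6 CPM, so the Gadd45a counts are uncertain by the reads of that neighbour.

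**Figure D2:**
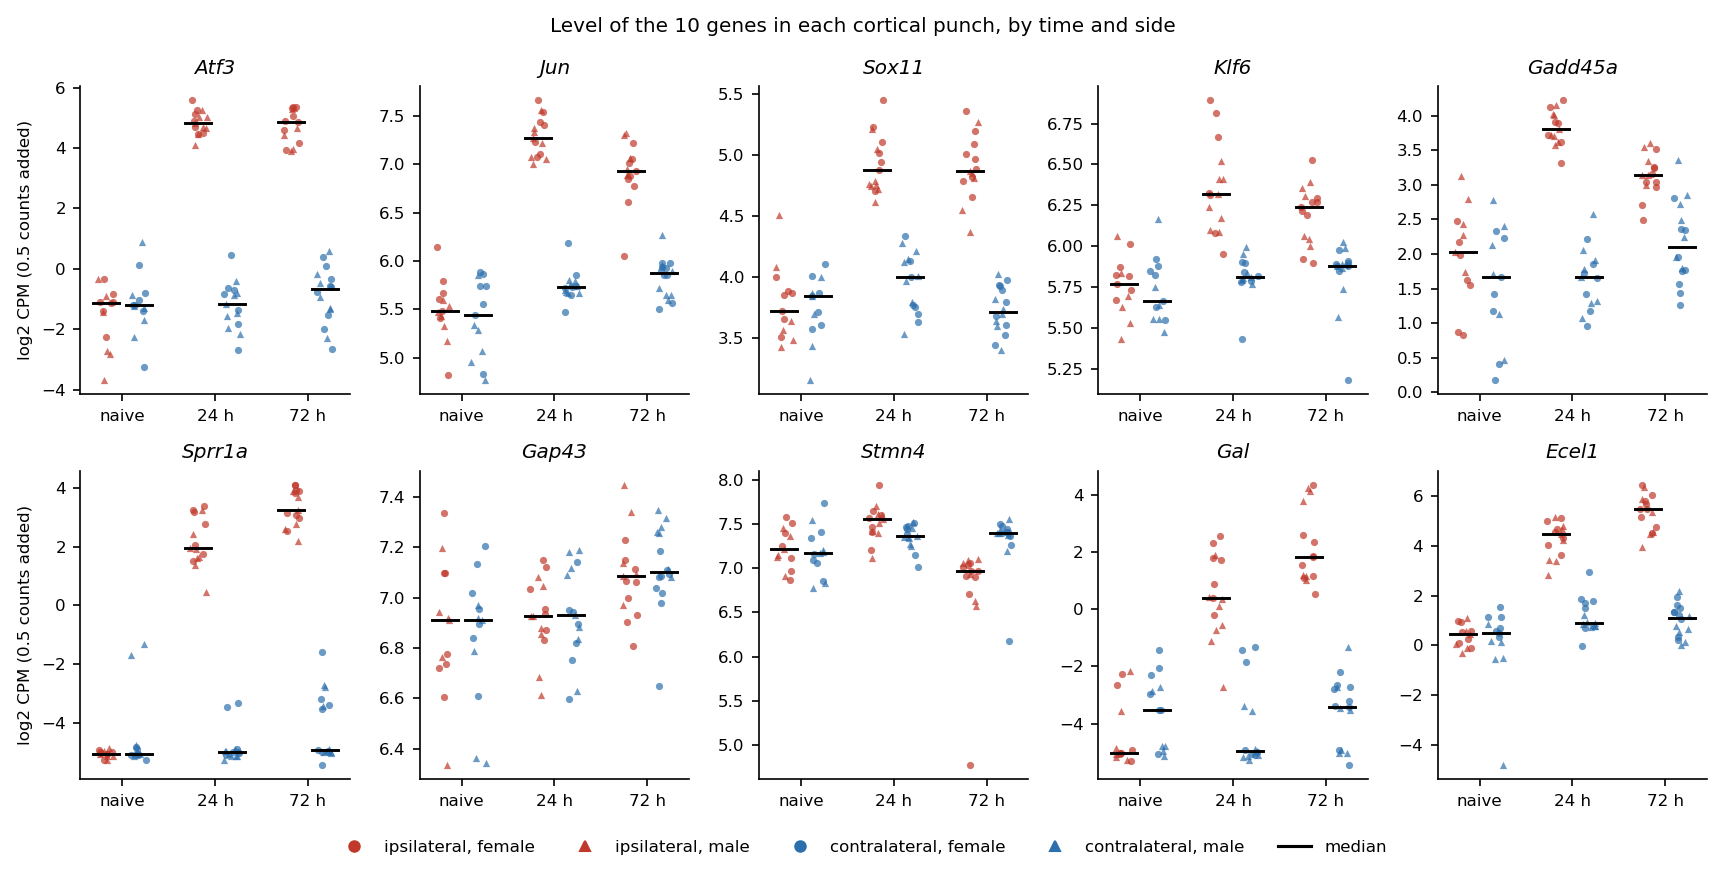
Level of each of the 10 genes in every assigned library, as log2 CPM with 0.5 counts added, for naive, 24 h and 72 h mice, with the ipsilateral punch left (red) and the contralateral punch right (blue) at each time; circles are females, triangles males, and lines medians. Each panel has its own vertical range. Injured punches of Atf3, Sprr1a, Gal and Ecel1 stand far above the others, and Gap43 shows no such step.

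Of the effectors of growth and the cytoskeleton, Sprr1a rose, Gap43 did not pass the test and Stmn4 fell at 72 h. Sprr1a encodes a small proline-rich protein of the cornified skin envelope and is strongly induced in axotomised sensory neurons of rodents; it lies at chr3:92483952-92485895 on the minus strand. It had 0 counts in all 13 naive ipsilateral libraries. At 24 h its lowest, median and highest levels were 1.35, 3.85 and 10.51 CPM, and at 72 h they were 4.53, 9.58 and 17.33 CPM. Every injured punch held it and no naive ipsilateral one did. Set against a floor of 3 counts over the 13 naive ipsilateral libraries, Sprr1a was at least 382-fold higher at 24 h (adjusted p = 7.9e-14) and at least 798-fold higher at 72 h (adjusted p = 6.93e-13). The 13 naive contralateral libraries held 10 counts, a mean of 0.0493 CPM, above that floor of 0.0138 CPM. The bounds thus hold against ipsilateral naive punches only. Of 7 other skin markers 4 could be tested, of which 2 were higher at 24 h and 3 at 72 h. The listed genes Krt5, Krt14 and Ivl were too low to test. The summed level of the 7 was 6.62 to 16.4 CPM in naive punches, 8.84 to 21.8 CPM at 24 h and 13.9 to 39.0 CPM at 72 h. Their part in the Sprr1a rise was not tested.

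Gap43, a membrane protein of growth cones and a substrate of protein kinase C, lies at chr16:42248442-42340651 on the minus strand. Its lowest, median and highest levels were 80.73, 120.2 and 161.48 CPM in naive punches, 97.9, 121.8 and 142.17 CPM at 24 h, and 112.13, 135.9 and 174.7 CPM at 72 h. The groups overlapped over most of their range. Neither comparison passed the test, with a log2 fold change of -0.09 ± 0.07 at 24 h (adjusted p = 0.32) and 0.10 ± 0.11 at 72 h (adjusted p = 0.496). The 95% intervals of the fold were 0.85 to 1.03 and 0.919 to 1.24.

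Stmn4, a neuronal stathmin that binds tubulin, lies at chr14:66344296-66361680 on the plus strand and was the only member that fell against naive. It stood at 116.39, 148.5 and 191.27 CPM in naive punches, at 138.26, 188.0 and 245.7 CPM at 24 h and at 27.44, 125.4 and 137.29 CPM at 72 h. Every 72 h punch lay below every 24 h punch, while 4 of 15 lay below the lowest naive one. The log2 fold change was 0.16 ± 0.11 at 24 h (adjusted p = 0.224) and -0.65 ± 0.17 at 72 h (adjusted p = 0.00118). At 24 h the value was 0.27 within batch A, where it passed (adjusted p = 0.0126), and 0.00 within batch B. The lowest punch, 27.44 CPM, was that of LF3, and the next was at 95.23 CPM; without LF3 the 72 h change was -0.45 ± 0.12 (adjusted p = 0.00113). Neuron markers moved the same way at 72 h: 6 of 10 were lower and 1 higher, their median change was -0.45, and their summed level was 4600 to 11500 CPM, against 7630 to 8930 CPM in naive punches. Their part in the Stmn4 change was not tested.

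Of Gal and Ecel1, a peptide and a peptidase, Gal was near 0 and Ecel1 low in naive cortex, and both had their highest medians at 72 h. For Ecel1 the step from 24 h to 72 h could not be separated from batch, as given below. Gal encodes the neuropeptide galanin, which signals through the receptors Galr1, Galr2 and Galr3, and lies at chr19:3409915-3414544 on the minus strand. It was at 0 in 9 of 13 naive libraries, with 9 counts in all and at most 0.19 CPM. At 24 h it stood at 0.12, 1.29 and 5.86 CPM, and at 72 h at 1.41, 3.54 and 20.37 CPM. At 24 h 14 of 15 punches, and at 72 h all 15, lay above the highest naive punch. By pooled counts Gal was 52.4-fold higher at 24 h (95% counting interval 27.4 to 115) and 167-fold higher at 72 h (87.5 to 365). The fitted log2 fold changes were 5.17 ± 0.74 (adjusted p = 2.02e-07) and 7.75 ± 0.87 (adjusted p = 9.8e-10). The 24 h value was 6.6 within batch A and 4.25 within batch B, and the 72 h value was 6.62 without LF3. The 72 h punches were uneven: 11 held 1.41 to 5.99 CPM, and those of TM1, PM2, TM2 and LF3 held 13.79, 17.56, 18.72 and 20.37 CPM. Those 4 animals comprise 3 males and 1 female from batches B and C.

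Ecel1, a membrane metalloprotease of the neprilysin family also known as damage-induced neuronal endopeptidase, lies at chr1:87147655-87156521 on the minus strand. Its levels were 0.78, 1.33 and 2.11 CPM in naive punches, 7.05, 21.94 and 35.27 CPM at 24 h, and 15.53, 44.02 and 87.06 CPM at 72 h. No injured punch overlapped a naive one. The log2 fold change was 3.80 ± 0.25 at 24 h (adjusted p = 6.77e-16) and 4.12 ± 0.33 at 72 h (adjusted p = 2.12e-13).

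Between 72 h and 24 h on the injured side, 1 gene was higher (21.7% of all genes) and 4 were lower (15.3% of all genes), with a median log2 fold change of -0.09 against 0.01. Gal was the gene that was higher, by 2.59 ± 0.62 (adjusted p = 0.00116), and by 1.45 ± 0.56 without LF3 (adjusted p = 0.0436). Gadd45a was lower by -0.88 ± 0.19 (adjusted p = 0.000363), and 11 of 15 punches at 72 h lay below the lowest at 24 h. Stmn4 was lower by -0.82 ± 0.16 (adjusted p = 8.81e-05), with no overlap. Jun was lower by -0.63 ± 0.12 (adjusted p = 4.96e-05), with 9 of 15 punches below the lowest at 24 h. Atf3 was lower by -0.57 ± 0.22 (adjusted p = 0.0369), a call that ended without the library of PF1 (-0.46, adjusted p = 0.109), without LF3 (-0.53, adjusted p = 0.0614), within batch B (-0.57, adjusted p = 0.064) and without a batch term (-0.13, adjusted p = 0.515). Within batch B the median Atf3 level was 33.75 CPM at 24 h and 18.05 CPM at 72 h. Over all batches the Atf3 medians were 28.54 and 29.09 CPM. Klf6 at -0.26 ± 0.12 did not pass (adjusted p = 0.0939) but did without LF3, at -0.45 ± 0.11 (adjusted p = 0.00179).

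For Ecel1 and Sprr1a the later rise could not be separated from batch. Ecel1 levels at 72 h were 22.24, 53.5 and 87.06 CPM in the 10 batch C punches and 15.53, 26.77 and 44.1 CPM in the 5 batch B punches, against 7.05, 24.3 and 35.27 CPM in the 8 batch B punches at 24 h. The fitted change of Ecel1 from 24 h to 72 h was 0.32 (adjusted p = 0.395) with the batch term, 0.34 within batch B and 0.99 without the term (adjusted p = 0.000145). Sprr1a had 0.68 (adjusted p = 0.148), 0.69 and 0.98 (adjusted p = 0.000934) in the same 3 fits. Batch C holds no 24 h animal, so time and batch cannot be told apart there.

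Comparing the 2 sides of the same animals removes differences between mice. At 24 h, 8 of the 10 genes were higher on the injured than on the opposite side and none was lower, beside 23.7% and 24.1% of all 19946 genes tested. At 72 h, 8 were higher (31.1% of all genes) and 2 lower (30.6%). In all 15 pairs of punches of each time, that labelled PF1 included, Atf3, Jun, Sprr1a, Sox11, Gal, Ecel1 and Klf6 had more CPM in the injured punch than in the opposite one, and Gadd45a did in 15 of 15 at 24 h and 14 of 15 at 72 h. The exception for Gadd45a was LF3, with 6.51 CPM on the injured side and 7.01 CPM on the opposite side. For Klf6 the smallest log2 ratio at 72 h was 0.01, in TF3, from CPM without TMM scaling. The share of all genes that were higher in every pair was not counted.

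On this within-animal scale Atf3 differed by 5.94 ± 0.22 at 24 h and 5.40 ± 0.22 at 72 h (adjusted p = 2.83e-26 and 2.25e-25, log2 fold changes). Sprr1a had 1396 counts on the injured side at 24 h against 2 on the opposite side, a 668-fold ratio of pooled levels with a counting interval of 185 to 5520. At 72 h it had 2641 counts against 13, a 217-fold ratio (127 to 408). Gal differed by 4.96 ± 0.42 and 5.96 ± 0.36, Sox11 by 0.93 ± 0.07 and 1.03 ± 0.08, and Klf6 by 0.50 ± 0.06 and 0.24 ± 0.06, at 24 h and 72 h in this order. The 72 h difference of Klf6 (adjusted p = 0.000793) was 0.27 within batch C and 0.21 within batch B, where it did not pass (adjusted p = 0.166). That of Gadd45a at 72 h was 1.05 within batch C and 0.53 within batch B, where it did not pass (adjusted p = 0.0737). In naive mice Gadd45a on the right differed from the left by 0.41, and by 0.57 ± 0.26 within batch B, and neither passed. The part of this naive difference in the 72 h value was not tested.

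**Figure D3:**
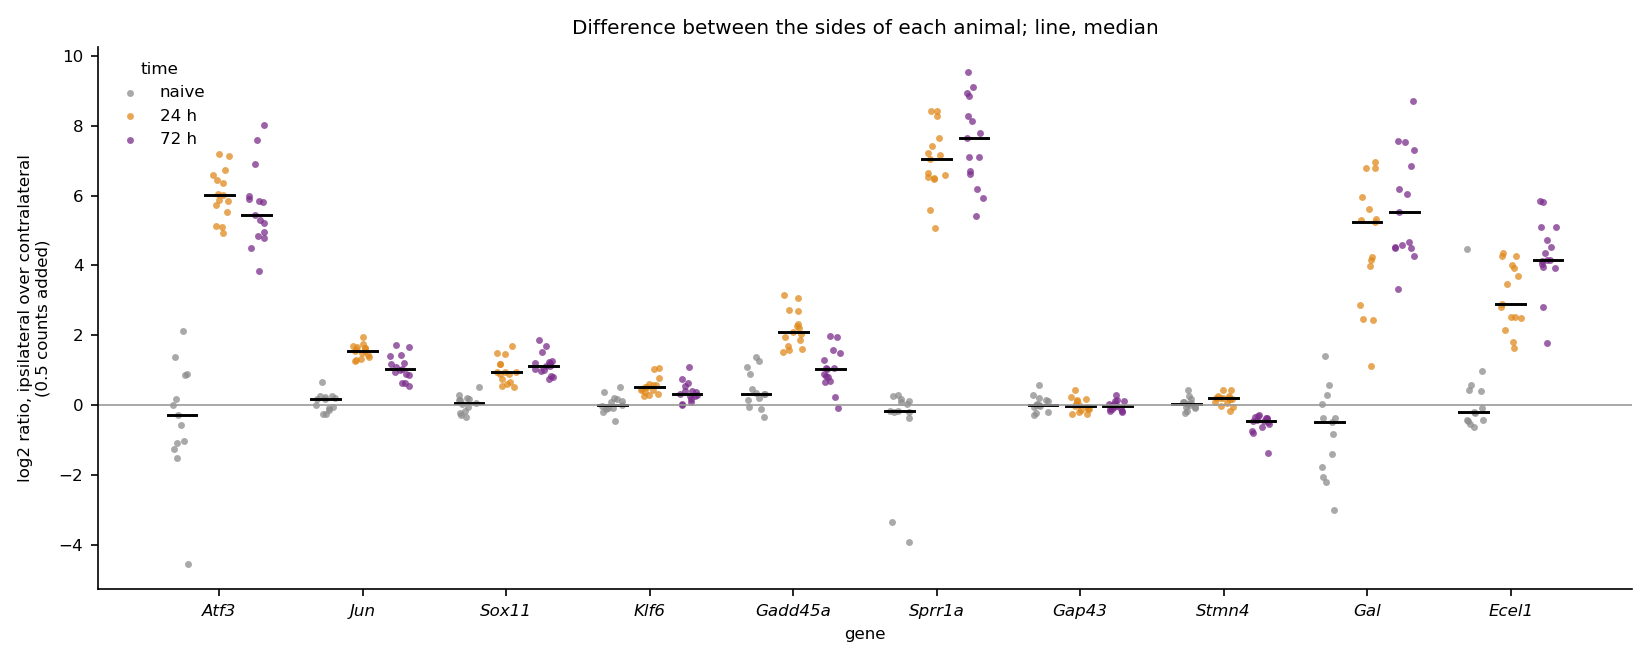
Log2 ratio of injured to opposite side in each animal for the 10 genes, for naive (right over left), 24 h and 72 h animals, with 0.5 counts added. Naive ratios scatter around 0, the ratios of the 8 rising genes lie above 0 in nearly all injured animals, and all 15 Stmn4 ratios at 72 h lie below 0.

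Stmn4 was higher on the injured side in 0 of 15 animals at 72 h, against 12 of 15 at 24 h. Without LF3 its 24 h difference of 0.12 passed (adjusted p = 0.0423), which made 9 members higher at that time. Its 72 h difference was -0.65 ± 0.07 (adjusted p = 7.93e-12), -0.58 without LF3, and -0.64 in both batch B and batch C. Neuron markers were lower on the injured side as well at 72 h, 9 of 10, with a median log2 fold change of -0.66. Gap43 was lower on the injured side at 72 h by -0.16 ± 0.05 in the fit (adjusted p = 0.00725), although 6 of 15 animals had more CPM on the injured side and the median CPM ratio was -0.03 on the log2 scale. The fit uses TMM scaling, and these CPM ratios do not. Mean Gap43 levels at 72 h were 137.0 CPM on the injured and 139.8 CPM on the opposite side. With TMM-scaled CPM they were 131.1 and 144.4. The small fitted difference was -0.18 within batch C and -0.06 within batch B, where it did not pass (adjusted p = 0.656).

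The side difference itself changed between 24 h and 72 h for 5 genes, 1 upward and 4 downward, beside 18.9% and 16.4% of all genes. The Ecel1 difference was 4.14 ± 0.23 at 72 h, against 3.04 ± 0.22 at 24 h, larger by 1.10 ± 0.31 (adjusted p = 0.00489). Within batch B the Ecel1 shift was 0.06 ± 0.49 (adjusted p = 0.958), and the 72 h difference was 3.17 within batch B and 4.72 within batch C, so the growth cannot be told apart from batch. The Gadd45a difference was 0.86 ± 0.14 at 72 h, against 2.12 ± 0.14 at 24 h, a shift of -1.26 ± 0.19 (adjusted p = 9.21e-07). The Jun difference was 0.98 ± 0.07 at 72 h, against 1.50 ± 0.07 at 24 h, a shift of -0.52 ± 0.10 (adjusted p = 4.82e-05). Klf6 shifted by -0.26 ± 0.09 (adjusted p = 0.0156). For Stmn4 the shift was -0.76 ± 0.09 (adjusted p = 6.38e-09). Within batch B the shifts of Gadd45a (-1.73), Jun (-0.86) and Stmn4 (-0.78) passed the test and that of Klf6 (-0.41, adjusted p = 0.0818) did not.

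On the opposite side the ranges of naive and injured mice overlapped for every one of the 10 genes. The share of all genes with such an overlap was not counted, so this is no trait particular to the 10. The medians there were 43.46 CPM in naive mice, 52.91 CPM at 24 h and 58.58 CPM at 72 h for Jun, and 14.33, 15.95 and 13.09 CPM for Sox11. They were 50.66, 56.15 and 58.92 CPM for Klf6, and 3.16, 3.15 and 4.27 CPM for Gadd45a. For Gap43 they were 120.5, 122.1 and 137.5 CPM, for Stmn4 144.2, 165.2 and 168.9 CPM, and for Atf3 0.41, 0.41 and 0.59 CPM, at naive, 24 h and 72 h in each case.

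On the opposite side none of the 8 genes with enough counts passed the test against naive at either time; Sprr1a and Gal were too low to test there. Of all 18436 genes, 0.819% were called higher and 1.29% lower at 24 h, and 0.244% and 0.0163% at 72 h. At an unadjusted p under 0.05, 3 of the 8 differed at 24 h and 4 at 72 h, all of them upward, beside 13.6% and 16.5% of all genes in either direction, and DESeq2 called 1 and 0. The gene DESeq2 called was Ecel1 at 24 h (0.78, adjusted p = 0.0271). In edgeR, Ecel1 was 0.77 ± 0.24 above naive at 24 h (adjusted p = 0.0883), with levels of 0.94, 1.81 and 7.75 CPM, against 0.00, 1.38 and 2.85 CPM in naive contralateral punches. Without LF3, Ecel1 (0.76, adjusted p = 0.0408) and Sox11 (0.23, adjusted p = 0.0453) passed at 24 h. Without a batch term, Jun (0.38, adjusted p = 0.00963) and Gap43 (0.26, adjusted p = 0.0179) passed at 72 h. The highest opposite-side level of Atf3 was 1.35 CPM at 24 h and 1.46 CPM at 72 h, against 1.81 CPM in the contralateral library of naive male CM1.

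In naive mice the right and left punches did not differ for any of the 10 genes, and 0 genes of the whole table were called in either direction (0% and 0%). At an unadjusted p under 0.05 there was 1 member, beside 2.88% of all genes: Gadd45a, at 0.41 ± 0.15 (adjusted p = 1.0, edgeR), and DESeq2 called 0 members. Sprr1a had 10 counts in 2 of the 13 naive contralateral libraries.

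The same 8 genes were higher at 24 h in females and in males, beside 16.2% of all genes in females and 16.1% in males. At 72 h females had 7 higher (26.7% of all genes) and 1 lower (18.8%), and males 6 higher (20.8%) and 1 lower (15.5%). The gene that differed was Gadd45a, at 0.96 ± 0.23 in females (adjusted p = 0.000807) and 0.40 ± 0.25 in males (adjusted p = 0.217). The test of the sex difference itself passed for none of the 10 genes and for 0% of all genes, higher or lower, at either time on the injured side. At an unadjusted p under 0.05 it gave 1 member at 24 h, Gadd45a (0.73 ± 0.26, females minus males), and 2 at 72 h, Gadd45a (0.55 ± 0.26) and Jun (-0.38 ± 0.16), beside 1.56% and 3.03% of all genes. All 3 had an adjusted p of 1.0 in edgeR, and DESeq2 called 0. Against the opposite side, 8 genes were higher and 0 lower at 24 h in each sex, beside 16.9% and 15.3% of all genes in females and 18.7% and 17.6% in males. At 72 h, 8 were higher and 2 lower in females (27.3% and 27.3% of all genes) and 8 and 1 in males (25.3% and 21.1%). For the side differences the sex test passed for 0 members in edgeR and 0 in DESeq2, beside 0% of all genes at 24 h and 0.0251% at 72 h. At an unadjusted p under 0.05 it gave Gap43 (0.22) and Sox11 (0.32) at 24 h and Jun (-0.29) at 72 h, beside 2.65% and 2.44% of all genes.

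The order of the genes by level, on a CPM per kilobase scale that allows genes to be compared, changed with injury. In naive ipsilateral punches it ran Stmn4 (78.9 ± 12.5 CPM per kb, SD over 13 libraries), Gap43 (78.5 ± 14.3), Jun (14.5 ± 3.16), Klf6 (12.4 ± 1.51), Gadd45a (2.47 ± 1.12), Sox11 (1.69 ± 0.39), Ecel1 (0.384 ± 0.123), Atf3 (0.178 ± 0.105), Gal (0.0539 ± 0.0926) and Sprr1a at 0. Stmn4 and Gap43, Jun and Klf6, Gadd45a and Sox11, and Gal and Sprr1a differed by less than the larger SD of each pair. At 24 h Stmn4 (96.4 ± 13.3), Gap43 (80.3 ± 8.17), Jun (49.5 ± 7.22) and Klf6 (18.9 ± 3.81) led, followed by Atf3 (13.8 ± 3.75), Gadd45a (8.15 ± 1.4), Sprr1a (6.52 ± 3.76), Ecel1 (6.11 ± 2.52), Sox11 (3.72 ± 0.655) and Gal (2.58 ± 2.25). In the run from Gadd45a to Gal at 24 h, each level differed from the next by less than the larger SD. At 72 h it ran Gap43 (90 ± 10.6), Stmn4 (60.5 ± 14.5), Jun (38.8 ± 7.37), Klf6 (16.9 ± 2.09), Sprr1a (13.6 ± 5.54), Atf3 (13.3 ± 4.71), Ecel1 (12.9 ± 6.28), Gal (8.77 ± 8.76), Gadd45a (5.1 ± 1.03) and Sox11 (3.65 ± 0.672). In the run from Klf6 to Gadd45a, each level differed from the next by less than the larger SD.

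Whether the genes varied together from animal to animal was read over the 15 injured punches of each time, on log2 CPM with the means of each sex and batch removed. Of 90 relations, 45 at each time, 1 passed after adjustment over all 90: Atf3 and Ecel1 at 72 h, with Pearson's r of 0.90 (permutation p = 0.00022, adjusted p = 0.0198) and Spearman's rho of 0.90 (permutation p = 0.00041, adjusted p = 0.0369). The relation held without the 2 punches farthest from the median Atf3 level (r = 0.92), without LF3 (0.90) and within the 10 punches of batch C (0.93); batch B held 5, too few for a value. At 24 h the same pair had r = 0.50 (permutation p = 0.132). Atf3 with Sprr1a and Sprr1a with Ecel1 had r = 0.83 and 0.82 at 72 h, and neither passed (permutation test, adjusted p = 0.113 each). Atf3 and Sox11 had r = 0.75 at 24 h (permutation test, adjusted p = 0.0589), with 0.68 in batch A and 0.82 in batch B. All levels of a punch share its library and depth.

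**Figure D4:**
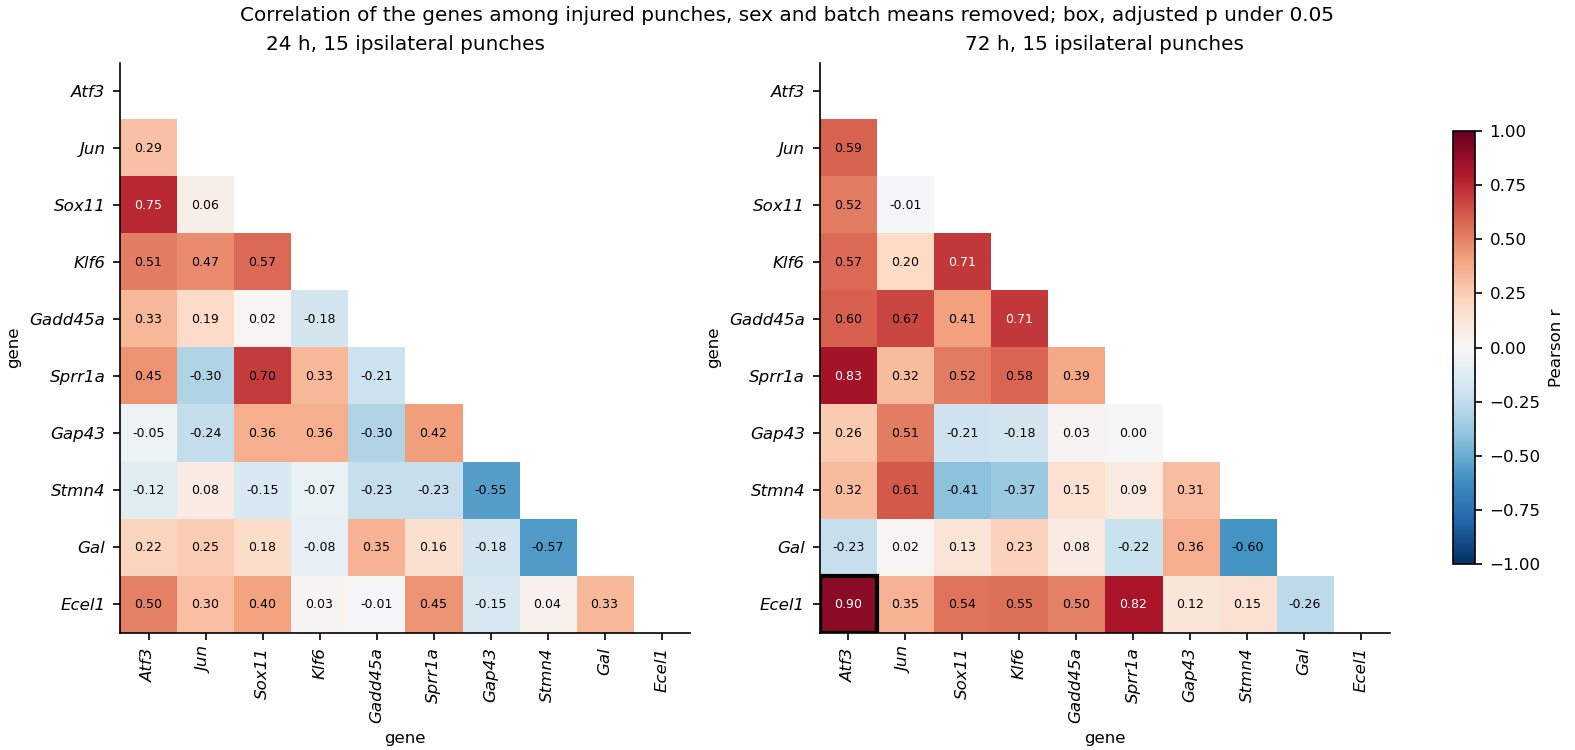
Pearson's r between every pair of the 10 genes across the 15 injured punches at 24 h (left) and at 72 h (right), with sex and batch means removed; the colour scale runs from negative to positive r, and a box marks an adjusted p under 0.05. The boxed pair is Atf3 and Ecel1 at 72 h.

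The genes of the whole table whose levels followed each member most closely were ranked by r over the 43 assigned ipsilateral libraries with group and batch means removed, among 14490 genes. These values are a description. Stmn4 had the closest followers, Pygb and Usp2 (r = 0.93 each), which became 0.82 and 0.84 without LF3. Gadd45a was followed by Plk3 (0.78) and Trib1 (0.70), Klf6 by Kcnj2 (0.74) and Rpf1 (0.70), and Jun by Dgcr2 (0.71) and Gadd45g (0.69). Atf3 was followed by Ms4a7 and Lcn2 (0.70 each), Gal by Slc29a4 (0.73) and Col27a1 (0.70), and Gap43 by Mmp17 (0.73) and Tmem179 (0.72). Ecel1 was followed by Rin3 (0.69) and Camk1 (0.64), Sox11 by Zfp628 (0.69) and Ppp4c (0.64), and Sprr1a by Btf3 (0.63) and Plscr3 (0.62).

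Counts of other genes of the axon injury response are read against the 22.9% of all genes called higher and 20.1% called lower at 24 h, and the 27.8% and 20.7% at 72 h; differences between lists were not tested. Of 22 further regeneration effectors, 18 were higher and 2 lower at 24 h, and 17 and 1 at 72 h, with median log2 fold changes of 2.19 and 1.53. They included Cd44, a hyaluronan receptor (5.21 and 5.54), Lif, a cytokine (5.18 and 4.13), and Gadd45g, a relative of Gadd45a (2.89 and 1.35). Many of these are also made by myeloid cells, whose markers rose in the same punches at both times, and their part was not tested. Of 16 further transcription factors, 10 were higher and 1 lower at 24 h, and 8 and 4 at 72 h, led by Stat3 (2.03 and 1.73), Myc (2.3 and 1.93) and Cebpd (3.9 and 3.26).

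Of 13 dimer partners of the AP-1 family, 9 were higher and 1 lower at 24 h, and 5 and 1 at 72 h. Maff (3.66 and 2.35) and Fosl1 (1.83 and 0.80) were higher at both times, and the repressor Jdp2 was lower (-0.90 and -1.27). Of 15 genes of the DLK and JNK pathway and of axon degeneration, 2 were higher and 6 lower at 24 h, and 0 and 9 at 72 h, with a median of -0.53 at 72 h. Map3k12, which encodes DLK, had -0.35 and -0.82, Map3k13, its close relative, -0.38 and -0.81, and Mapk9, a JNK, -0.22 and -0.63. Against the opposite side at 72 h, 13 of the 15 were lower and 0 higher, beside 30.6% and 31.1% of all genes. Neuron markers were lower in the same punches, and their part was not tested.

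**Figure D5:**
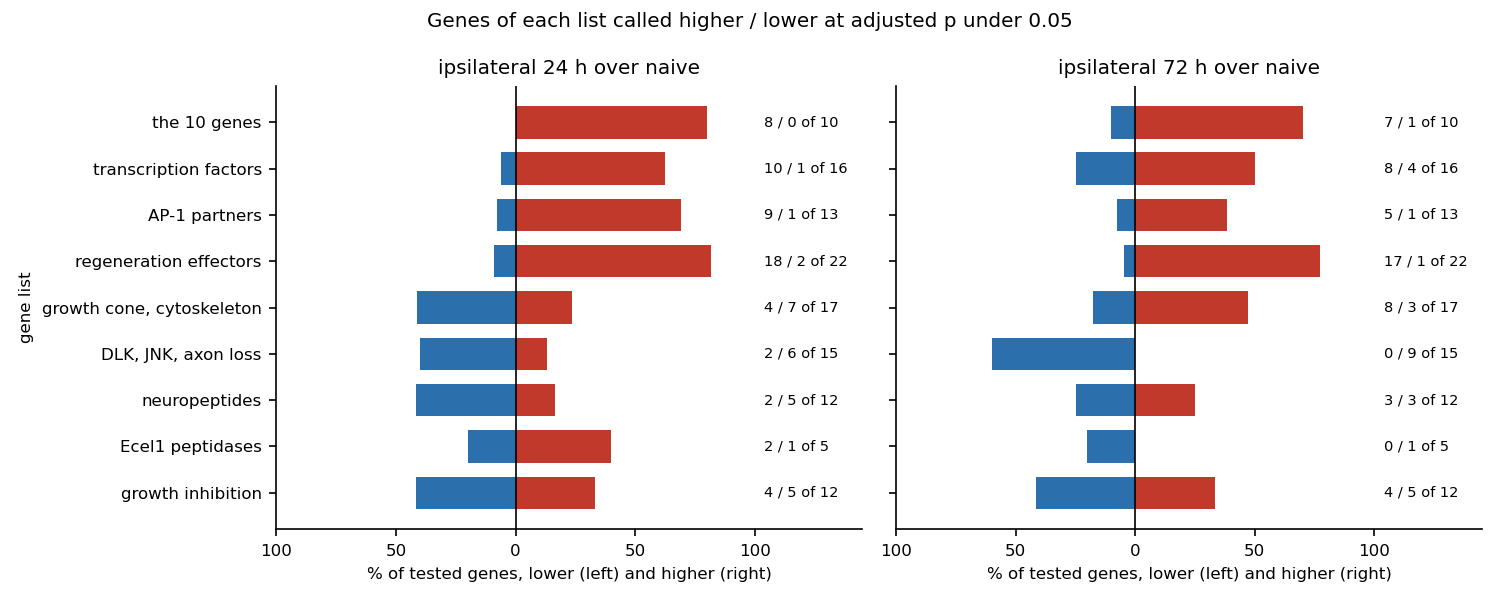
Share of the measured genes of each list called higher or lower on the injured side against naive, at 24 h and at 72 h, in percent. The bars of the 10 members and of the further regeneration effectors are mostly higher calls, and those of the DLK and JNK list are mostly lower calls.

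Of 17 growth cone and cytoskeletal genes, 4 were higher and 7 lower at 24 h, and 8 and 3 at 72 h. Tubb6, a tubulin, was higher at both times (3.01 and 3.24), and Stmn1, a relative of Stmn4, was lower at both (-0.70 and -0.72). Tubb3, a neuronal tubulin, was lower at 24 h (-0.49). Among 12 neuropeptide and galanin receptor genes with enough counts, 2 were higher and 5 lower at 24 h, and 3 and 3 at 72 h. Cartpt (-1.99 and -2.44) and Vip (-1.18 and -1.17), both peptide precursors, were lower at both times. Gpr151, a receptor related to those of galanin, was higher (2.31 and 1.89), and the galanin receptors Galr1 and Galr3 were too low to test. Of 5 peptidases related to Ecel1, 2 were higher and 1 lower at 24 h, and 0 and 1 at 72 h; Mme, which encodes neprilysin, was the lower one (-0.92 and -1.02). Of 12 genes that restrain axon growth, 4 were higher and 5 lower at each time, with Socs3, an inhibitor of cytokine signalling, higher (3.92 and 3.61) and Rtn4r, a Nogo receptor, lower (-0.77 and -1.16).

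Markers of other cells and regions in the same punches were counted beside these genes. Their counts are read against 22.9% of all genes called higher and 20.1% lower at 24 h, and 27.8% and 20.7% at 72 h. All 8 infiltrating myeloid markers were higher at both times, with medians of 4.97 and 4.49. Microglial markers were 1 higher and 3 lower of 6 at 24 h, and 5 higher and 0 lower at 72 h. All 6 oligodendrocyte precursor markers were higher at 72 h. Their summed level was 193 to 319 CPM in naive punches, 209 to 349 CPM at 24 h and 435 to 874 CPM at 72 h. Astrocyte markers were 2 higher and 3 lower of 6 at 24 h, and 3 and 1 at 72 h, and oligodendrocyte markers were 2 higher and 0 lower of 6 at 24 h, and 4 and 0 at 72 h. Markers of immature neurons were 1 higher and 4 lower of 6 at 24 h, and 1 and 3 at 72 h. Endothelial markers were 2 higher and 1 lower of 6 at 24 h, and 5 and 0 at 72 h, and those of fibroblasts and meninges were 2 and 2 of 6 at 24 h, and 4 and 1 at 72 h. Markers of pericytes and smooth muscle were 0 higher and 2 lower of 5 at 24 h, and 3 and 1 at 72 h. All 5 red cell markers were higher at both times, with a summed level of 3.15 to 90.9 CPM in naive punches, 30.3 to 590 CPM at 24 h and 70.7 to 509 CPM at 72 h. Of the genes of peripheral sensory neurons, in which the axon injury programme is best known, Prph, a peripheral intermediate filament, was higher at both times (2.01 and 3.03). Avil, which encodes an actin-binding protein, was higher at 24 h (0.64) and did not pass at 72 h (0.72), and the factor gene Isl1 was too low to test. With the Schwann cell genes of that list, 6 genes in all, the summed level was 37.3 to 62.9 CPM in naive punches. It was 66.5 to 123 CPM at 24 h and 110 to 188 CPM at 72 h. Sox10 is both in this list and among the oligodendrocyte precursor markers. Of 9 markers of neighbouring regions, 6 were higher and 2 lower at 24 h, and 7 and 2 at 72 h, with a summed level of 274 to 355 CPM in naive punches, 497 to 845 CPM at 24 h and 376 to 771 CPM at 72 h. Of 6 hypothalamic markers, chosen because that region is rich in galanin, 2 could be tested and 0 passed in either direction. The part of these cells and regions in the levels of the 10 genes was not tested.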

How the data were processed

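Polyadenylated RNA of 88 punches from 44 mice was sequenced; per the submitters' processing notes, alignment was to mm10 by HISAT2 2.0.5. Counter, annotation and use of strand: not given in the sources used here. Raw counts per gene and library, without normalization, were deposited; CPM, CPM per kb of exon and log2 CPM (0.5 counts added) were computed here. Of 54532 genes, 54409 were matched to GENCODE M21 (GRCm38); the 123 others held 0.0615% of counts. Groups, batches and animals come from the labels, each library of a group from another animal. One ipsilateral library was unassigned, which left 87, and 0 columns of per-sample values were otherwise unused.

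Tests used edgeR 4.0.16 (limma 3.58.1, R 4.3.3): filterByExpr, TMM scaling, the quasi-likelihood F test, two-sided, and contrasts that average females and males. The ipsilateral fit held 43 libraries (19126 genes, 35 residual degrees of freedom) and the contralateral fit 44 (18436 genes, 36), each with a batch term. The side fit blocked on the animal and held 43 animals with 86 libraries (19946 genes, 37); punches were paired by the labels' animal names. Naive libraries serve both times, so the comparisons with naive share them. Standard errors come from the fold change and its F statistic. Counting intervals are exact at 95% and, like the floor of 3 counts, cover counting error only. Relations between genes were tested with 100000 permutations within sex and batch, two-sided, over 15 punches per time, adjusted over 90 relations. All fits were tested on simulated counts.

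Alternatives were DESeq2 1.42.0, relative log expression scaling, no filter on low counts, no batch term, no replicate block, single batches, TMM-scaled CPM, relations without removing sex and batch means, and the data without the PF1 library; leaving out LF3 or CM1 was added after seeing the data. The text names all 10 genes, of each other list the 3 genes with the smallest p at 24 h and at 72 h or some of these, and for each gene the 2 others with the most similar residuals. A few other list or marker genes, among them the receptors and markers too low to test, were named after their values were seen. The genes, lists, markers and tests were chosen with earlier results of these data known. 1 marker gene is not reported here.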

Additional observations from a re-analysis of the deposited data

Results flagged for a closer look

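In 116 groups of 4 to 10 libraries, taken by gene, sex, time and side, a library stood far from the rest 16 times. The limit used gives about 1 in 20 groups for normally distributed values. Levels of few counts, as those of Gal and Sprr1a, need not be so distributed, so the 16 cannot be set against that share. Animal LF3, a 72 h female with the largest mitochondrial share, accounted for 5 of the 16. It had the highest Gal level on the injured side among 72 h females (20.37 CPM, the next 5.99) and the lowest Stmn4 level there (27.44 CPM, the next 104.61). On its opposite side it had the lowest Stmn4 (72.21 CPM, the next 152.83), Klf6 (36.22, the next 57.52) and Gap43 (100.33, the next 126.15). The contralateral library of naive male CM1 had the highest Atf3 (1.81 CPM, the next 0.52) and Klf6 (71.63, the next 53.83). Female QF1 had the highest opposite-side Atf3 (1.35 CPM, the next 0.61) and Ecel1 (7.75, the next 3.56) at 24 h.

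The other flagged libraries were single ones. Ecel1 was highest on the opposite side in male RM1 at 24 h (2.28 CPM, the next 1.89) and in male PM2 at 72 h (4.52, the next 2.24). Klf6 was lowest on the opposite side in female FF3 at 24 h (43.05 CPM, the next 55.0). Gal was highest on the injured side in male RM2 at 24 h (3.68 CPM, the next 1.3), on the opposite side in male TM2 at 72 h (0.37, the next 0.12) and in the ipsilateral punch of naive male KM2 (0.19, the next 0.06). Sprr1a was highest on the opposite side in female PF2 at 72 h (0.3 CPM, the next 0.07).

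The unassigned ipsilateral library of PM1, which entered no comparison, held more than every naive ipsilateral library for 9 of the 10 genes, as it did for 34.2% of the 14490 genes whose average log2 CPM was 1 or more. It had 51.36 CPM of Atf3, 129.18 of Jun, 20.43 of Sprr1a, 165.51 of Gap43, 33.97 of Sox11, 12.79 of Gadd45a, 19.63 of Gal, 93.78 of Ecel1 and 81.61 of Klf6. Its Atf3, Sprr1a, Gadd45a and Ecel1 levels were above those of all 15 assigned injured punches at 72 h. The share of all genes for which this library did so was not counted.

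The difference between injured and opposite side shifted between 24 h and 72 h for 5 genes in a test of the difference itself: Ecel1 by 1.10, Gadd45a by -1.26, Jun by -0.52, Klf6 by -0.26 and Stmn4 by -0.76 on the log2 scale.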

How the results depend on the processing

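Of 1070 values of the 10 genes under an alternative, 1047 kept their side of the threshold, 11 lost the call and 12 gained it. Of values called in the fit given above or in the alternative, 0 reversed. Values called in neither were not compared for direction. Some of them changed sign, as Atf3 did on the opposite side at 24 h (-0.18, range -0.93 to 0.79). With TMM-scaled CPM, 0 of 60 mean levels moved by over 1 SD. The calls against naive on the injured side, 8 higher at 24 h and 7 higher and 1 lower at 72 h, stayed within 1.5 times these counts under all alternatives run. The counts that moved further were as follows. Between 72 h and 24 h the members higher were 3 in place of 1 without a batch term. On the opposite side the members higher at 24 h were 1 in DESeq2 and 2 without LF3 in place of 0, and at 72 h 2 without a batch term in place of 0. At 72 h the members lower than on the opposite side were 1 in place of 2 without a filter and within batch B. The upward shift of the side difference was in 0 members within batch B in place of 1. The relations passed were 5 in place of 1 with sex and batch means left in. The fit with no replicate block gave 8 and 0 members at 24 h, 8 and 2 at 72 h and 1 and 4 for the shift, so the block changed no count of members.

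Counts over all genes moved by over 1.5 times within batch B, to 2447 higher and 1850 lower at 24 h against naive (4375 and 3841 with all batches), to 3044 and 2184 against the opposite side at 24 h (4719 and 4798), to 4095 and 2950 there at 72 h (6208 and 6097), to 2602 and 1252 for 72 h against 24 h (4145 and 2933), and to 1353 upward and 614 downward side shifts (3778 and 3275). Without a batch term 4434 genes were lower at 72 h than at 24 h. On the opposite side at 24 h they ranged over 0 to 440 higher and 0 to 750 lower, beside 151 and 237; at 72 h over 3 to 409 and 0 to 1047, beside 45 and 3. Leaving out PF1 could not alter the contralateral fit, which does not hold its ipsilateral library, and gave no value there. Depth limits Sprr1a and Gal, which had at most 22 counts over all libraries of a time on the opposite side. The causes of these changes were not tested.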
